A study of Zea mays with 56 samples.

Results

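Leaf was set against endosperm of the same maize plant to describe how Mu transposon insertions differ between tissues of one kernel. The comparison uses 14 of the 56 libraries of the series: 8 leaf libraries and 6 endosperm libraries, joined by plant number over 6 plants (74, 75, 76, 78, 79 and 83). Plants 74 and 75 each gave 2 technical leaf libraries, whose values were averaged, so every plant counts once in each tissue. The series read Mu insertions in endosperm, leaf, root and pollen with MuSeq2, which ligates an adapter to sheared DNA and amplifies the DNA beside Mu ends by PCR.

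Mu elements are DNA transposons of maize that insert at new places while the transposase encoded by MuDR is active. A kernel forms by double fertilisation: both sperm cells of a pollen grain carry like genomes, one joins the egg and gives the embryo, the other joins the central cell and gives the endosperm. The embryo grows into the plant and its leaves, while the endosperm feeds the seedling and leaves no descendants, so an insertion carried by both sperm can be found in both tissues and one that arises after fertilisation can be found in only one. An insertion that arises early in a tissue is carried by many of its cells, and one that arises late is carried by few.

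All 6 plants are labelled Mu-active in the W22 background, from a Mu-active male crossed to a Mu-inactive female. The leaf samples are labelled primary leaf and were taken from V2 seedlings, and the endosperm was a chip cut from the seed that was then sown. The endosperm of plant 74 carries a genotype label that names B73 MuKiller as well as W22 MuActive, whereas its leaf is labelled W22 MuActive. Mu killer is a locus known in maize to silence MuDR. Leaf libraries of the Mu-inactive female parent, 4 libraries of 3 plants, gave the background. Leaf DNA was prepared with a Qiagen kit and endosperm DNA with a CTAB method, so tissue and extraction cannot be told apart in any of the differences below.

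Total counts ran from 606090 to 1881017 in the leaf libraries and from 366099 to 1521838 in the endosperm libraries. Counts were scaled to a reference level, the median count of a library over the 28 sites that had at least 10 counts in every one of the 50 undiluted libraries. This level ran from 8618 to 23714 in leaf and from 5063.5 to 19829.5 in endosperm, and a site's relative abundance is its count divided by it. In the Mu-inactive leaves, sites found in 1 plant only summed to 0.0128 to 0.0813 of the reference level, at most 2.08% of the lowest value of any leaf or endosperm compared here. No genome of the files' build was at hand, so sites are given by position only, without gene context and without sequence.

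Inherited sites were those that reached a relative abundance of 0.1 in the endosperm as well as in an embryo-derived library. Sites read in Mu-inactive leaf were left out by rule, and 23 to 42 inherited sites per plant remained. The median relative abundance of these sites was 0.642, 0.596, 0.648, 0.602, 0.616 and 0.731 in the leaves of plants 74, 75, 76, 78, 79 and 83, against 0.704, 0.656, 0.742, 0.683, 0.716 and 0.835 in their endosperms. The leaf was the lower of the pair in 6 of 6 plants, with differences of -0.0598 to -0.104, and 5 of 6 leaves lay below every endosperm. The mean difference was -0.083 ± 0.019 (SD, n = 6), with an exact sign-flip permutation p of 0.03125, the smallest that 6 plants allow, and an adjusted p of 0.0688 over the 11 tests of this kind. It therefore did not pass the threshold of 0.05.

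Within a plant, between 66.7% and 88.1% of the inherited sites were lower in leaf. Per site, the median ratio of leaf to endosperm lay between 0.862 and 0.887 over the plants. A copy received from the father only is 1 of 2 genome copies in leaf nuclei and 1 of 3 in endosperm nuclei, so relative to sites on both parents' chromosomes its nominal ratio is 1.5, and the measured ratios were on the other side of 1. Whether the 28 reference sites lie on the chromosomes of both parents was not tested. The rule asks for 0.1 in the endosperm, which bounds the endosperm median from below. In the tables of a single border the mean difference was smaller, -0.052 from the left (exact sign-flip permutation p = 0.0625) and -0.051 from the right (p = 0.125).

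**Figure D1:**
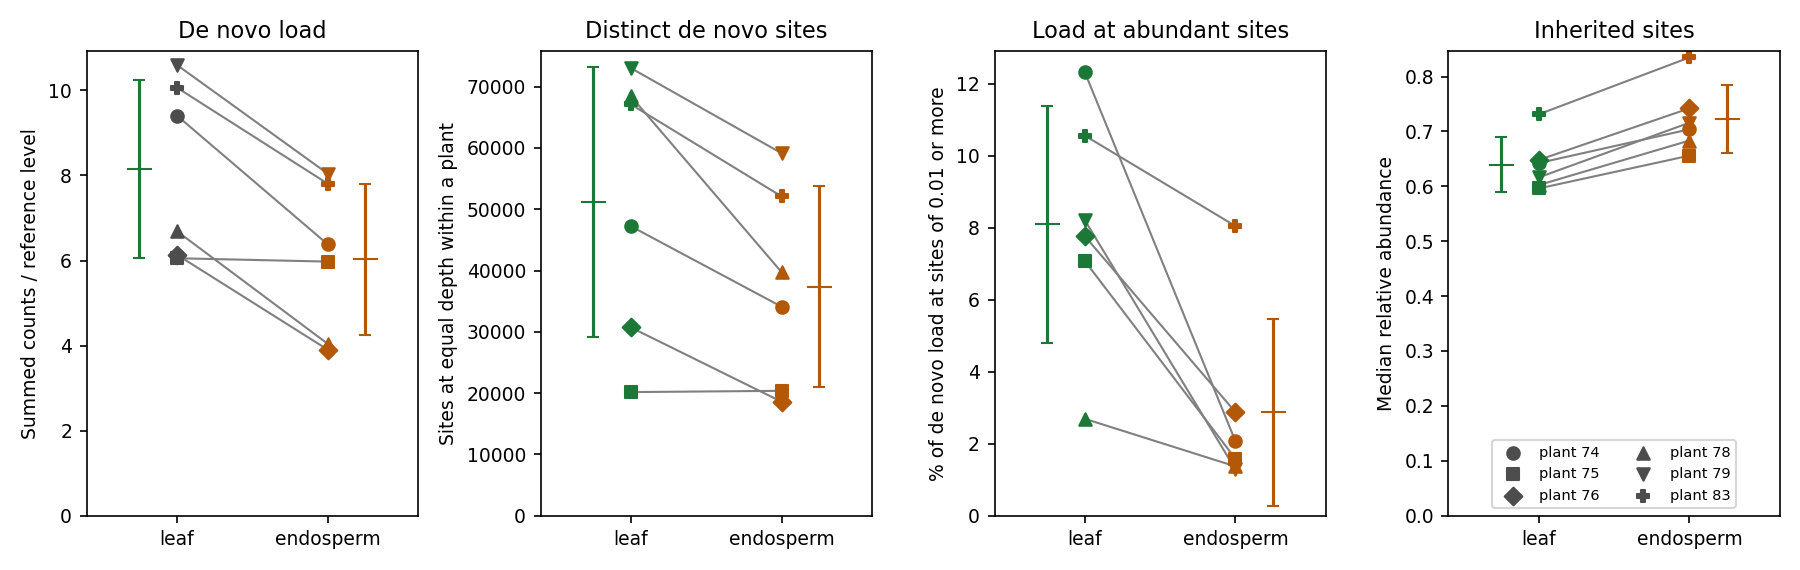
Leaf (left) and endosperm (right) of the 6 plants, joined by a line per plant, for the de novo load (summed counts over the reference level), distinct de novo sites at equal depth, the percent of de novo load at sites of relative abundance 0.01 or more, and the median relative abundance of inherited sites. Bars beside the points are means ± SD; the leaf is the higher of the pair in 6 of 6 plants for load and for the share at abundant sites, in 5 of 6 for distinct sites and in 0 of 6 for inherited sites.

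New insertions were taken as de novo sites, which had a count in 1 plant only over all undiluted libraries and were not inherited. Their counts, summed and divided by the reference level, give the de novo load. The load was 9.41, 6.05, 6.14, 6.69, 10.6 and 10.1 in the leaves of plants 74, 75, 76, 78, 79 and 83, against 6.38, 5.97, 3.91, 4.04, 8.04 and 7.81 in their endosperms. The leaf was higher in 6 of 6 plants, and 3 leaves lay above every endosperm. Plant 75 stood at one end, with a leaf 1.01 times its endosperm, and plant 78 at the other, with 1.65 times. A new insertion on 1 chromosome is also 1 of 2 genome copies in a leaf nucleus and 1 of 3 in an endosperm nucleus. Relative to sites on both parents' chromosomes its nominal ratio is again 1.5. The part of this dosage in the load and in the number of abundant sites was not tested.

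The mean log2 difference in load was 0.45 ± 0.25 (SD, n = 6), with an exact sign-flip permutation p of 0.03125 and an adjusted p of 0.0688, short of the threshold. The technical leaf libraries had loads of 9.33 and 9.49 in plant 74 and of 5.972 and 6.14 in plant 75, where 1 of the leaf libraries lay just below the endosperm at 5.975. The count of 6 of 6 therefore rests on the average in plant 75. Without the second technical libraries the log2 difference was 0.45 and the exact sign-flip permutation p was 0.0625, and the left border table gave the same p. Plants with a high load in leaf also tended to have one in endosperm, at a Pearson r of 0.83 and a Spearman rho of 0.83 over 6 plants, with an exact permutation p of 0.0583 for each. Leaving out the 2 plants farthest from the median leaf load gave an r of 0.83. This was the only relation of its kind computed. Divided by the plant's own inherited sites in place of the reference sites, the leaf load was 1.11 to 1.88 times the endosperm load.

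Distinct de novo sites were compared after thinning both libraries of a plant to the lower reference level. The leaf then held 47216, 20162, 30708, 68430, 73025 and 67110 sites in plants 74, 75, 76, 78, 79 and 83, and the endosperm 34100, 20372, 18588, 39740, 59140 and 52097. The leaf was higher in 5 of 6 plants, and plant 75, the exception, had nearly equal numbers. The mean log2 difference was 0.44 ± 0.29 (SD, n = 6; exact sign-flip permutation p = 0.0625, adjusted p = 0.0982). Most of these sites had a single count: 62.9% to 85.3% of the de novo sites in the leaf libraries and 69.0% to 79.0% in the endosperm libraries, before thinning. The site numbers therefore rest largely on sites near the limit of detection. The log2 difference was 0.03 with at least 2 counts per site, 0.14 with at least 5 and 0.35 with both borders read. Such cuts came before the rule of 1 plant, so they also change which sites are de novo.

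The tissues differed more at the abundant end of the spectrum. The percent of the de novo load held by sites of relative abundance 0.01 or more was 12.3, 7.07, 7.76, 2.69, 8.20 and 10.6 in the leaves of plants 74, 75, 76, 78, 79 and 83, against 2.07, 1.58, 2.87, 1.37, 1.28 and 8.04 in their endosperms. The leaf was higher in 6 of 6 plants. Plant 78 had the lowest leaf share, and the endosperm of plant 83 stood above the other endosperms. The mean share was 8.10% ± 3.29 in leaf and 2.87% ± 2.60 in endosperm (SD, n = 6 each), a difference of 5.23 percentage points with an exact sign-flip permutation p of 0.03125 and an adjusted p of 0.0688.

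By number, sites of 0.01 or more came to 30.3 ± 14.0 per leaf and 6.65 ± 3.62 per endosperm at equal depth (SD, n = 6 each). By plant there were 47.0, 22.8, 22.9, 10.4, 35.6 and 43.0 such sites in leaf of plants 74, 75, 76, 78, 79 and 83, against 4.90, 7, 8, 3, 4 and 13 in endosperm. Every leaf held more than its own endosperm, and the leaf of plant 78 held fewer than the endosperm of plant 83. The same direction held in 6 of 6 plants at 0.003 or more, with 171 ± 51.6 sites in leaf and 62.5 ± 9.91 in endosperm, and at 0.001 or more, with 572 ± 166 and 377 ± 79.8. At 0.03 or more the means were 6.34 ± 5.45 sites in leaf and 1.0 ± 0.894 in endosperm, and 5 of 6 leaves were higher. At 0.1 or more there was 1 de novo site in a leaf, of plant 74, and 1 in an endosperm, of plant 83. These thresholds below and above 0.01 are given as a description, with no test.

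**Figure D2:**
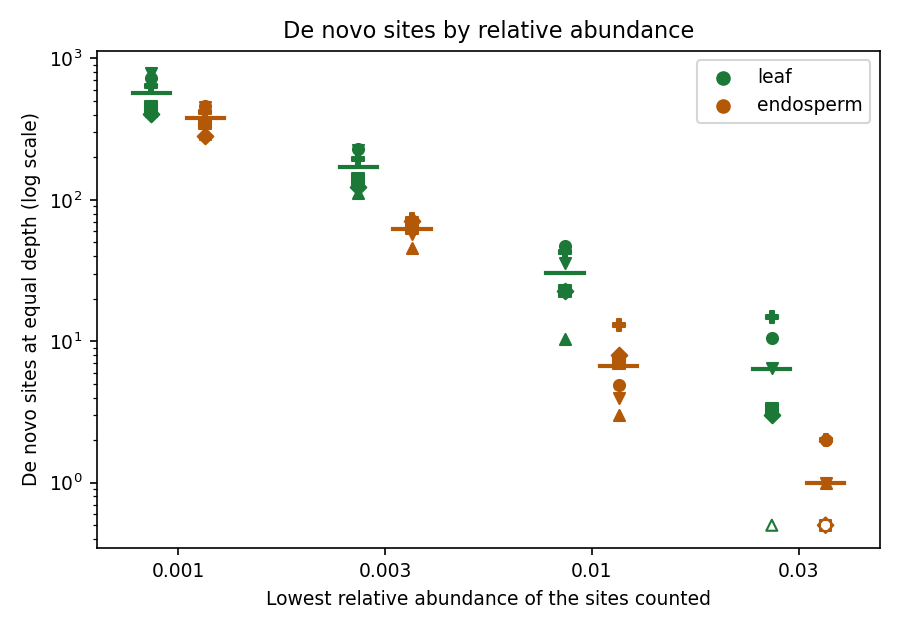
Number of de novo sites per plant at or above 4 levels of relative abundance, leaf left of endosperm, after thinning to equal depth within a plant (log scale). Symbols are plants as in the plot of paired values, bars are means over 6 plants, and open symbols at the foot mark fewer than 0.5 sites; the means part from 572 against 377 at 0.001 to 30.3 against 6.65 at 0.01.

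Both parts of the spectrum contributed to the load. Sites below 0.01 summed to 7.46 ± 1.77 reference levels in leaf and 5.84 ± 1.67 in endosperm (SD, n = 6 each), and this part was higher in leaf in 5 of 6 plants. Sites of 0.01 or more added 0.696 ± 0.391 in leaf and 0.187 ± 0.217 in endosperm. The shape of the spectrum was set against the pairing too. The Kolmogorov-Smirnov distance between the load-weighted spectra of a leaf and an endosperm, over sites of at least 0.003, averaged 0.293 for the 6 pairs of one plant and 0.320 for the 30 pairs of different plants. This difference of -0.0275 had an exact permutation p of 0.351 over the 720 ways to pair the tissues (adjusted p = 0.429).

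The most abundant de novo site of each tissue is given for each plant, among sites read at both borders. In plant 74 it lay at chr9:2589202-2589210 in leaf, with a relative abundance of 0.110 (95% Poisson interval 0.105 to 0.115), 959 left-border and 1002 right-border counts over both libraries, and no count in endosperm. In the endosperm of plant 74 it lay at chr1:17083501-17083509, with 0.0392 (0.0355 to 0.0431) and no count in leaf. The 9 bp between the borders match the usual span of the sites in the tables, and Mu is known to duplicate its target on insertion.

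The leaf sites of the other plants were chr3:159846032-159846040 in plant 75 at 0.0448, chr7:120042249-120042257 in plant 76 at 0.0572, and chr7:11680255-11680263 in plant 78 at 0.0278. Plant 79 had chr4:190388759-190388767 at 0.0729 and plant 83 had chr1:247464748-247464756 at 0.0598. In endosperm they were chr10:13791983-13791991 in plant 75 at 0.0278, chr2:232230845-232230853 in plant 76 at 0.0253, and chr2:149889225-149889233 in plant 78 at 0.0328. Plant 79 had chr2:200117341-200117349 at 0.0204, and plant 83 had chr1:72569854-72569862 at 0.375 (0.364 to 0.385), the highest de novo site of the 6 plants. Each of these 12 sites had 0 counts in the other tissue of its plant and in the plant's pollen and root libraries where those exist. A count of 0 allows a relative abundance of up to 0.000127 to 0.000348 in the leaf libraries and 0.000151 to 0.000592 in the endosperm libraries, at 3 counts per library. No such limit was computed for pollen or root. The pollen libraries of plants 74, 75, 78, 79 and 83 held only 7119 to 60167 total counts, and that of plant 76 held 451155. The leaf and endosperm libraries held 366099 or more. Absence of the 12 named sites from pollen was therefore not tested at a like depth, except in plant 76.

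Counted over all de novo sites of 0.01 or more, before thinning, none of those in leaf was read in endosperm in plants 74, 75, 76 and 78, where each leaf library held 10 to 49 of them. A count of 0 allows a share of up to 6.12% of the 49 sites in one leaf library of plant 74 and up to 30% of the 10 in plant 78. In plant 79 the endosperm held 3 of 34 leaf sites, 8.82% (exact 95% binomial interval 1.86 to 23.7), and in plant 83 it held 4 of 43, 9.30% (2.59 to 22.1). In the other direction the leaf held 1 of 7 abundant endosperm sites in plant 75, 1 of 4 in plant 79 and 3 of 13 in plant 83, and 0 of 5, 0 of 8 and 0 of 3 in plants 74, 76 and 78. The abundant sites of a leaf lay on 6 to 10 chromosomes.

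The strongest sites read in both tissues of a plant, below 0.1 in each, were chr10:142957255-142957263 in plant 79 and chr7:162818402-162818410 in plant 83. The first had a relative abundance of 0.0882 in leaf and 0.0607 in endosperm, and the second 0.0777 in leaf and 0.0609 in endosperm. Both were read from the left border alone and were also in the plant's pollen, at up to 0.203 in plant 79 and 0.0614 in plant 83. At both sites, the deposited combined count is 2 times the left-border count, so the levels by reads are lower than those printed. The first counts as de novo because its endosperm lay below 0.1. Without de novo sites that reached 0.1 in any library, the abundant share of plant 79 was 7.43% in leaf and 0.533% in endosperm, against 8.20% and 1.28% with them. In plant 75 the strongest such site was chr8:144145489-144145497, at 0.00541 in leaf and 0.00770 in endosperm, almost all from the right border, and it too was in pollen. In plants 74, 76 and 78 the strongest such site lay 4 bp from a site of 0.1 or more.

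Whether a plant's own tissues share more sites than tissues of different plants was asked of all sites absent from Mu-inactive leaf and below 0.1 in every library. The leaf shared 8.20%, 4.53%, 5.50%, 7.35%, 9.54% and 8.77% of its sites with its own endosperm in plants 74, 75, 76, 78, 79 and 83. Own pairs averaged 7.32% ± 1.94 (SD, n = 6), against 7.19% in the 30 mismatched pairs, which ran from 3.82% to 11.9%. The difference of 0.12 percentage points did not pass (exact permutation test of the pairing, p = 0.201, adjusted p = 0.277).

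In the other direction, 10.3%, 14.7%, 9.63%, 14.7%, 16.2% and 17.0% of the endosperm sites of plants 74, 75, 76, 78, 79 and 83 were read in their own leaf. Own pairs averaged 13.7% ± 3.07 (SD, n = 6) and mismatched pairs 13.3%, within 7.25% to 19.5%. The difference of 0.40 percentage points passed (exact permutation p = 0.00417, adjusted p = 0.0229). It no longer passed when any of plants 74, 75, 78, 79 or 83 was left out (0.319 to 0.430 points, exact permutation, adjusted p of 0.0917 to 0.1375), and passed without plant 76 (0.565 points, adjusted p = 0.0458). These shares move with the depth of both libraries, so each was also divided by what the mean of its leaf and the mean of its endosperm give, a scaling added after seeing the data. On that scale the plant's own pair was the highest of 6 for every leaf and every endosperm in both directions, at 1.03 to 1.05 times. Both directions count the same shared sites, so on that scale they nearly coincide and are not separate results.

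The excess was smaller without the surroundings of highly abundant sites. Leaving out sites within 1 kb of any site that reached 0.1 in some library, also added after seeing the data, gave 6.92% in own pairs against 7.05% in mismatched pairs for leaf sites, and 13.1% against 13.2% for endosperm sites. Both differences then ran the other way, -0.13 and -0.08 percentage points, with exact permutation p of 0.2 and 0.501 (adjusted p = 0.314 and 0.689). Scaled by leaf and endosperm means, own pairs were 1.00 to 1.02 times, above 1 in 6 of 6 plants, and the plant's own leaf was the highest of 6 for 3 of 6 endosperms. Among sites of 5 counts or more, own pairs exceeded mismatched pairs by 0.780 points for leaf sites and 2.00 points for endosperm sites (exact permutation, adjusted p = 0.00764 for each). With sites within 1 kb left out as well, the excess was 0.0558 points for leaf sites (adjusted p = 0.709) and 0.529 points for endosperm sites, which passed (exact permutation, adjusted p = 0.0153).

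**Figure D3:**
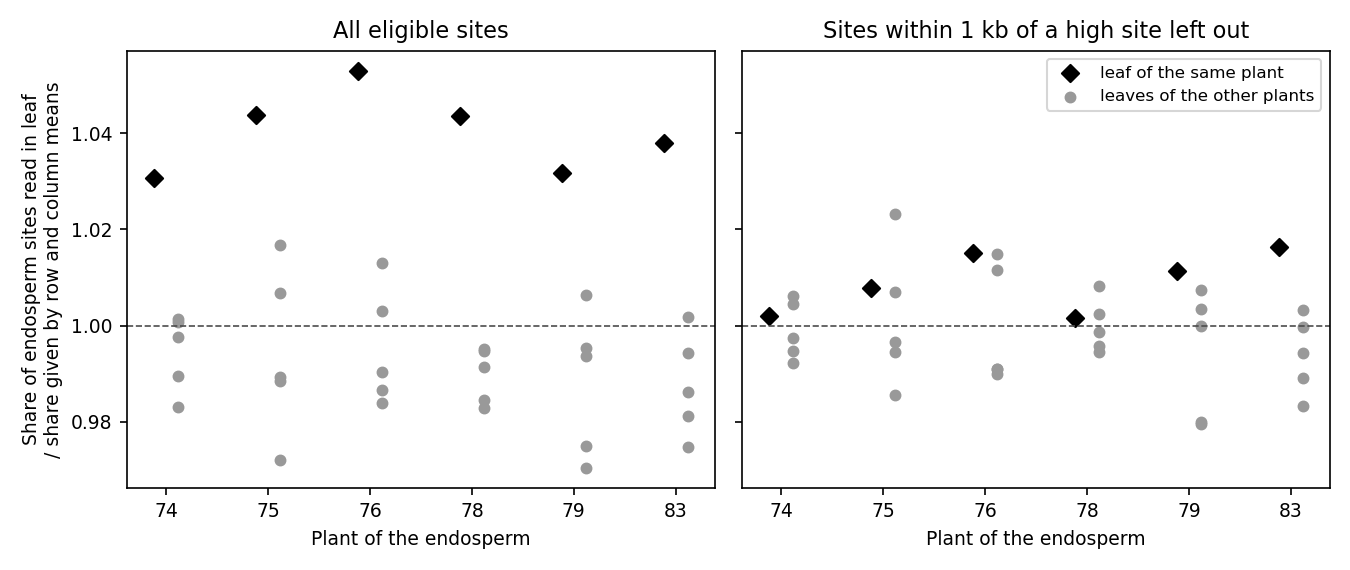
Share of an endosperm's sites read in a leaf, divided by the share that the row mean and the column mean of the 6 by 6 table give, for each endosperm with the leaf of the same plant (black diamonds) and with the leaves of the other plants (grey points). With all eligible sites the own leaf stands at 1.03 to 1.05, above the 5 others in every plant; with sites within 1 kb of a site of 0.1 or more left out it stands at 1.00 to 1.02 and is the highest in 3 of 6.

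The sites that were read in both tissues were largely sites that recur between plants. Of those in the 6 pairs, 41.8% to 60.0% had counts in at least 10 of the 17 Mu-active plants. Among all leaf sites of the same libraries it was 7.69% to 11.9%. Mu-inactive plants lack these sites by rule. A shared site was read in a median of 8 to 11 plants and a leaf site in a median of 2. Sites within 100 bp of a site of 0.1 or more made up 4.56% to 9.03% of the shared sites and 1.64% to 2.09% of the leaf sites. De novo sites, which by rule occur in no other plant, were read in both tissues 212 to 1289 times per plant and library, which is 0.556% to 1.27% of the leaf's de novo sites and 0.863% to 2.47% of the endosperm's.

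Shares were also taken by class of abundance, without scaling for depth. Of leaf sites at 0.01 to 0.1, 12.4% ± 5.29 were read in the own endosperm and 11.4% in mismatched endosperms (SD, n = 6 plants). Of endosperm sites at 0.01 to 0.1, 16.7% ± 9.80 were read in the own leaf and 14.5% in mismatched leaves. In each direction 4 of 6 plants were above their own mismatched mean. The lowest class, below 0.0003, gave 6.28% ± 1.79 in own pairs and 6.42% in mismatched pairs for leaf sites. These classes are a description, with no test.

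Across the genome both tissues took new insertions in the same broad pattern. Over 1 Mb bins of chromosomes 1 to 10, the Spearman rho between de novo site numbers of leaf and endosperm was 0.874, 0.853, 0.823, 0.886, 0.912 and 0.911 in plants 74, 75, 76, 78, 79 and 83, and 0.814 to 0.909 over the mismatched pairs. These are correlations across bins within libraries, and the bins share mappability and depth. Own pairs averaged 0.877 and mismatched pairs 0.862, a difference of 0.0143 with an exact permutation p of 0.00139, the smallest of 720 pairings, and an adjusted p of 0.0153. It did not pass without plant 74, 75, 78, 79 or 83 (0.0139 to 0.0152, adjusted p = 0.0917 each), where 5 plants allow no exact permutation p under 0.00833. With all 6 plants and sites within 1 kb of a site of 0.1 or more left out, the difference was 0.00637. With sites within 1 Mb left out it was 0.00238, and both were still at an exact permutation p of 0.00139. A de novo site is found in 1 plant by rule, so only own pairs can hold the same site in both tissues, and without those sites the difference was 0.0118.

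By chromosome, the shares of leaf and endosperm differed on average by at most 0.44 percentage points of each other. Chromosome 1 held 16.8% ± 0.101 of the leaf de novo sites and 16.3% ± 0.335 of the endosperm sites (SD, n = 6 each), higher in leaf in 6 of 6 plants by 0.129 to 0.890 points. Chromosomes 2, 8 and 9 were lower in leaf in 6 of 6 plants, by means of -0.22, -0.18 and -0.21 points. Chromosome 2 held 11.95% of leaf and 12.2% of endosperm sites, chromosome 8 held 7.94% and 8.12%, and chromosome 9 held 7.19% and 7.40%. Each of these 4 chromosomes was at the smallest exact sign-flip permutation p of 0.03125, and the adjusted p was 0.0781. So 0 of 10 chromosomes (0%) passed, and 4 were under 0.05 before adjustment. With 6 plants a call needs at least 7 chromosomes at that smallest p, so the lack of calls says little.

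The other 6 chromosomes did not keep one direction over the plants. Chromosome 4 held 10.6% of leaf and 10.4% of endosperm sites and was higher in leaf in 5 of 6 plants, and chromosome 5 held 12.1% and 12%, also in 5 of 6. Chromosome 10 held 6.46% and 6.57% and was lower in leaf in 5 of 6 plants. Chromosome 3 held 11.2% and 11.2%, chromosome 6 held 7.80% and 7.96%, and chromosome 7 held 7.97% and 7.92% of leaf and of endosperm sites.

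**Figure D4:**
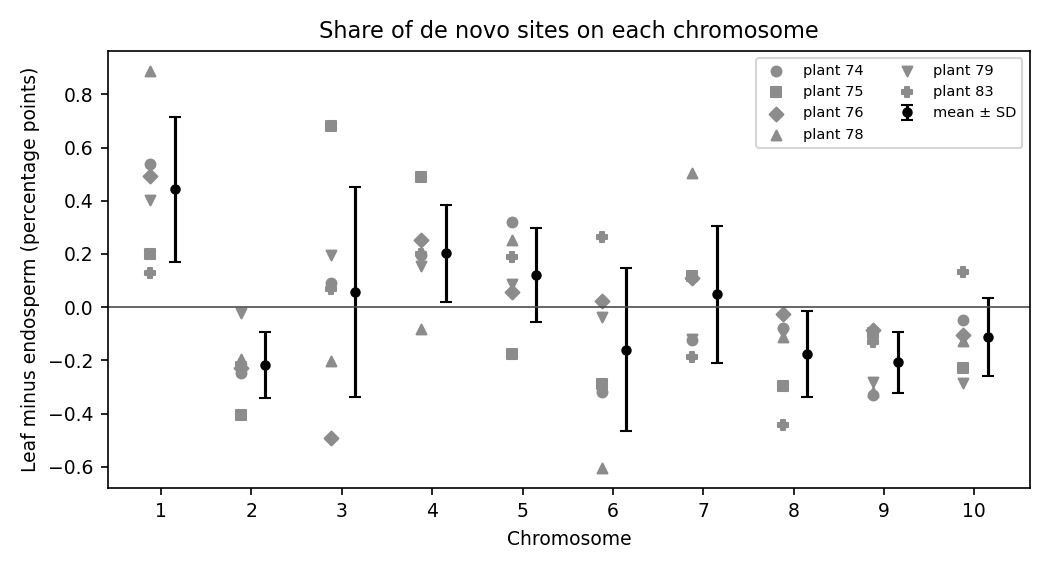
Share of de novo sites on each of 10 chromosomes, leaf minus endosperm in percentage points, for the 6 plants (grey symbols) with the mean ± SD (black). Chromosome 1 lies above 0 in 6 of 6 plants, and chromosomes 2, 8 and 9 lie below 0 in 6 of 6.

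Along the chromosomes the mean shares differed by little. Each chromosome was cut into 10 equal parts of its length, taken as the highest position of a site. The end parts, 1 and 10, together held 35.4% ± 0.140 of the leaf sites and 35.4% ± 0.340 of the endosperm sites (SD, n = 6 each), a difference of 0.03 points (exact sign-flip permutation p = 0.8125, adjusted p = 0.894). Among sites of 5 counts or more the difference was 1.10 points (exact sign-flip permutation p = 0.03125, adjusted p = 0.0662), which did not pass. Part 10 alone held 20.3% of leaf and 20.1% of endosperm sites, part 1 held 15.1% and 15.2%, and part 5, the emptiest, held 4.24% and 4.29%. The largest mean difference was 0.317 points in part 7, with 9.21% of leaf and 8.89% of endosperm sites. It was higher in leaf in 5 of 6 plants (exact sign-flip permutation p = 0.0625, adjusted p = 0.3125). Part 2 held 8.85% and 9.09% and was lower in leaf in 5 of 6 plants. Of the 10 parts, 0 (0%) passed and 0 were under 0.05 before adjustment, by exact sign-flip permutation tests over 6 plants.

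At 1 Mb, 1624 of 2127 bins held enough de novo sites to test, and edgeR's quasi-likelihood test with the plant as a block called 101 of them, 6.22%, at an adjusted p under 0.05. Of these, 45 bins (2.77% of those tested) were higher and 56 (3.45%) lower in leaf, relative to the tissue's total, and 324 bins were under 0.05 before adjustment. The fold changes were small: 91.6% of the bins lay within 0.5 on the log2 scale, and the called bins ran from -1.20 to 1.55. The call depends on the tool and the plants. DESeq2 called 0 bins, with 122 under 0.05 before adjustment, and edgeR called 57 without plant 74, 40 without plant 79 and 51 without plant 83.

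The strongest bin higher in leaf was chr10:122000000-122999999, with 74.2 ± 34.6 sites per leaf and 23.5 ± 10.1 per endosperm (SD, n = 6 each), a log2 difference of 0.76 (edgeR adjusted p = 0.000192). It was higher in leaf in 6 of 6 plants and held no site within 1 kb of a site of 0.1 or more. The bin chr1:152000000-152999999 had 32.2 sites per leaf and 7.5 per endosperm, with a log2 difference of 1.14 (edgeR adjusted p = 0.000226). The next were chr6:130000000-130999999 at 1.26, chr10:35000000-35999999 at 1.16 and chr3:228000000-228999999 at 0.68 on the log2 scale. All 5 were higher in leaf in 6 of 6 plants, and of them the bin on chromosome 3 held sites near a high site, 136 of its 725.

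The strongest bins lower in leaf were chr10:23000000-23999999, with 32.8 sites per leaf and 27.5 per endosperm and a log2 difference of -0.91 relative to the totals, and chr9:11000000-11999999, with 61.2 and 50 sites and -0.65 (edgeR adjusted p = 0.000192 for both). Their raw numbers are higher in leaf because the leaf libraries hold more sites in all. Of their sites, 101 of 412 and 107 of 783 lay within 1 kb of a site of 0.1 or more. The bins chr10:1000000-1999999, chr6:158000000-158999999 and chr9:7000000-7999999 followed at -0.62, -0.63 and -0.90. With sites within 1 kb of a high site left out, 101 bins were called, of which 93 were among the first 101.

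**Figure D5:**
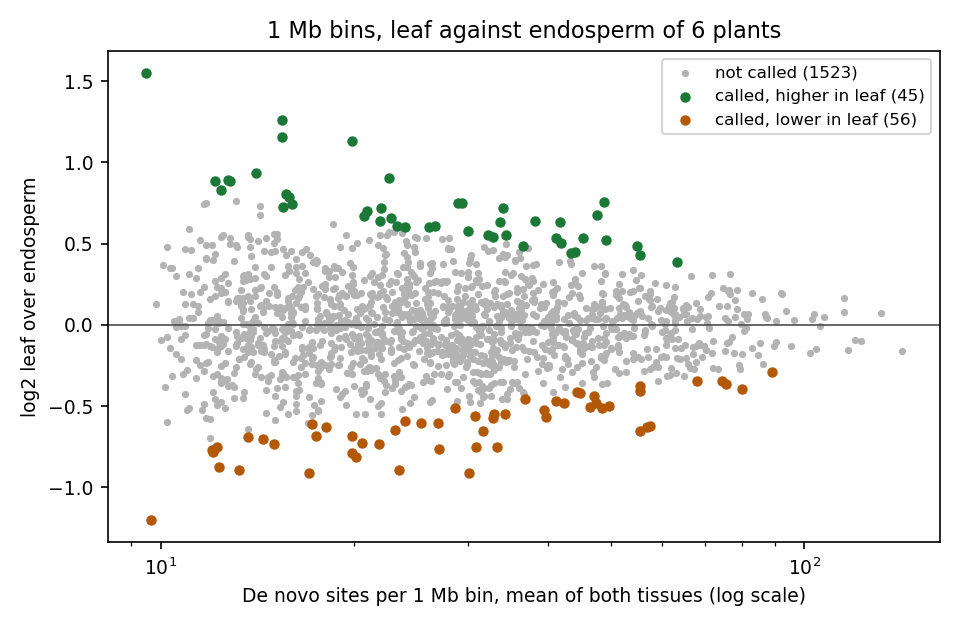
Log2 difference of leaf over endosperm for the 1624 bins of 1 Mb tested, against the mean number of de novo sites of both tissues (log scale), with bins called higher in leaf in green, called lower in leaf in orange and not called in grey. The 45 and 56 called bins lie at the outer edge of a cloud centred near 0.

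Called bins were spread over all 10 chromosomes. The end parts of the chromosomes held 14 of the 45 bins higher in leaf, 31.1%, and 16 of the 56 lower in leaf, 28.6%, against 24.2% of the bins not called. Chromosome 1 held 10 bins higher and 5 lower in leaf, with 255 not called. Chromosomes 2, 8 and 9 held 5, 2 and 2 higher against 8, 8 and 6 lower, with 164, 128 and 111 not called. Over all chromosomes 45 were higher, 56 lower and 1523 not called. The same sites gave the chromosome shares above, so these counts add no separate support. Of the called bins, 30 of the 45 higher and 36 of the 56 lower in leaf had one direction in 6 of 6 plants. Among bins not called it was 104 of 1523. The bins were called on these same plants, so one direction is favoured by the selection.

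A true Mu insertion can be read from both of its borders, so border counts were set side by side. Of de novo sites with at least 10 counts, 90.8%, 90.1%, 90.9%, 87.5%, 90.2% and 89.0% were read at both borders in the leaves of plants 74, 75, 76, 78, 79 and 83, against 96.1%, 91.5%, 90.9%, 91.4%, 93.9% and 90.2% in their endosperms. The leaf was lower in 5 of 6 plants and equal in plant 76. The mean difference was -2.60 ± 2.00 percentage points (SD, n = 6; exact sign-flip permutation p = 0.0625, adjusted p = 0.0982). Over sites of any number of plants, an alternative added after seeing the data, it was -0.44 points (exact sign-flip permutation p = 0.656). Left-border counts made up 49.6% to 50.4% of the de novo counts in all 14 libraries, so neither border was favoured.

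Without plant 74, whose endosperm label names MuKiller, the leaf stayed higher in load in the other 5 plants, by a mean of 0.43 on the log2 scale. The difference in the share at abundant sites was then 4.23 percentage points, and inherited sites differed by -0.088. For sharing, the own-pair excess was 0.0714 points for leaf sites and 0.373 points for endosperm sites, and the excess of endosperm sites no longer passed (exact permutation, adjusted p = 0.1375). Nor did the bin correlation, at a difference of 0.0152 (exact permutation, adjusted p = 0.0917). With 5 plants the smallest exact sign-flip permutation p is 0.0625, so none of the sign-flip tests between tissues could pass. Within plant 74 itself, the endosperm load of 6.38 lay inside the range of the other 5 endosperms, 3.91 to 8.04, and the leaf load of 9.41 inside the range of the other 5 leaves, 6.05 to 10.6.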

How the data were processed

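The deposited tables hold counts per insertion site and library, whole numbers that the authors made from MuSeq2 reads, in 1 table for both borders and 1 for each border. Bowtie2 is named per the submitters' processing notes. Its version, the genome build, the insertion caller and any molecular identifiers were not given in the sources used here. Each table has 2253850 sites. At 163 of them the combined count is not the sum of the borders, and these sites hold many counts. The first leaf library of plant 74 totalled 809879 combined counts, with 373837 left and 357935 right. The endosperm library of plant 83 totalled 972166, with 428981 left and 430000 right. The difference at inherited sites, smaller in the tables of a single border, was not tested without these sites.

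Plant numbers in the labels pair the tissues, which per the labels' design text came from the same plants, and the plant was the block. The title of the second leaf library of plant 75 names plant 76 and its description plant 75; the description was followed. Nothing says that counts are independent molecules, so intervals (exact Poisson, 95%) and limits for counts of 0 (3 counts) cover counting error only.

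Differences between tissues were tested over the plants with exact two-sided sign-flip tests, pairing with exact permutation over the 720 assignments of endosperms to leaves, with Benjamini-Hochberg adjustment over 11 tests. Chromosomes, and 10 equal parts of their length, were adjusted over 10 each. Site numbers per 1 Mb bin were tested with edgeR 4.0.16 in R 4.3.3 (technical libraries averaged and rounded, filterByExpr, TMM), with DESeq2 1.42.0 as an alternative. Other steps used Python 3.11.15, numpy 2.4.6, pandas 2.3.3, scipy 1.17.1 and matplotlib 3.10.9. The procedures were tested on simulated data. Thinning used the expected value under binomial sampling.

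Named sites are, for each plant, the de novo site of highest relative abundance in leaf and in endosperm with 10 counts or more and reads at each border, and the site of highest lower-of-both abundance read in both tissues, in no other plant and below 0.1. Named bins are up to 5 of lowest p in each direction. The plants, sites and lists were chosen with earlier results of these data known.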

Additional observations from a re-analysis of the deposited data

Results flagged for a closer look

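Among 14 groups of 6 values, 4 held a value apart from the rest by Dixon's criterion, a gap of more than 0.625 of the range, where chance gives about 1 in 20 groups. The share of de novo load at abundant sites in the endosperm of plant 83 was 8.04%, and without its 1 site of 0.1 or more it was 3.41%. The share of sites in the chromosome ends in the leaf of plant 76 was 35.1%. For sites high in one tissue only, the leaf of plant 74 and the endosperm of plant 83 had 1 each, against 0 in the 5 other plants; a lone 1 among values of 0 always meets this criterion, so these 2 say nothing beyond the count.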

How the results depend on the processing

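The de novo load, the distinct sites, the share at abundant sites and the level of inherited sites kept their direction under all alternatives run, at log2 differences of 0.40 to 0.87 in load and 0.03 to 0.91 in sites, 2.02 to 11.9 percentage points in the abundant share and -0.108 to -0.0511 at inherited sites. None passed, which says little: the smallest exact sign-flip p is 0.03125 with 6 plants and 0.0625 with 5. Counting without the replicate block gave -2.60 points for sites read at both borders (exact permutation, adjusted p = 0.0476, now past the threshold) and 29 bins; the pairing changed no other call.

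For endosperm sites read in leaf, leaving out 1 plant gave 0.319 to 0.565 points. This did not pass without plants 74, 75, 78, 79 or 83, at exact permutation p of 0.0167 to 0.025. The smallest exact permutation p of 5 plants is 0.00833, and these p lay above it. Without sites within 100 bp or 1 kb of a site of 0.1 or more the difference was -0.0403 or -0.0800. The ratio scale without sites within 1 kb gave 0.0110 (not passed). It passed as a ratio without sites within 100 bp (0.0140) and at 5 counts or more without sites within 1 kb (0.529). For leaf sites read in endosperm, the call passed at 5 counts or more (0.780), by load (1.18), and as a ratio with all sites (0.0484) or without those within 100 bp (0.0140), and ran the other way without sites within 100 bp (-0.107) or 1 kb (-0.125).

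The bin correlation difference ran from 0.0133 to 0.0152 when 1 plant was left out, and was not passed without plants 74, 75, 78, 79 or 83, at 5 counts or more (0.0146) or with both borders read (0.0108). The spectrum distance turned to 0.0103 with both borders read and to 0.00261 over sites of any number of plants. The share in chromosome ends, never called, was 1.10 points at 5 counts or more, 0.400 with both borders read and 0.271 at 2 counts or more. It turned to -0.0966 in the left border table, -0.00110 without the second technical libraries, -0.0473 for the outer 20% at each end and -0.0476 over sites of any number of plants, and ran from -0.0866 to 0.0985 with 1 plant left out.

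Bins called numbered 40 to 81 with 1 plant left out, 9 at 2 counts or more, 0 at 5 counts or more (of 7 tested, 1 under 0.05 before adjustment, by edgeR), 45 and 28 in the left and right border tables, 1 with both borders read (of 170 tested), 16 of 429 in 5 Mb bins and 320 over sites of any number of plants. DESeq2 called 0, with 122 under 0.05 before adjustment. Without normalization the split was 53 higher and 48 lower in leaf. Sites read at both borders differed by -0.439 points over sites of any number of plants. Single counts made up 62.9% to 85.3% of the de novo sites in leaf and 69.0% to 79.0% in endosperm, so site numbers depend on depth.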
